A study of Mus musculus with 34 samples.

Results

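The quiescence and naive T cell factors described here are 10 transcription regulators that resting T cells express: Klf2, Klf3, Foxo1, Foxp1, Tcf7, Lef1, Satb1, Bach2, Tob1 and Ets1. They were chosen by gene symbol, and each was read from the brightest probe set annotated to that symbol alone. Of the 10, 9 had such a probe set, 1 each, out of 19938 genes in the series. Tcf7 had none under its symbol and its level was not analysed here. All 9 were among the 11413 genes bright enough to be compared, those whose highest group mean reached 5.327 log2, the median of all values.

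The series measured RNA on Affymetrix arrays, 1 array per sample, in CD4+ splenocytes of 5 inbred mouse strains. CD4+ cells, mostly helper T cells, were taken from the spleen on magnetic beads. Values are log2 intensities after RMA, so a difference of 1 log2 is a doubling. The comparisons ask what stimulation did to each factor and whether the strains differed before or after it.

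The strains were DBA/2J, 129X1/SvJ, C57BL/6J, A/J and Balb/c, all female, 8 weeks old and with no engineered allele named. T0 cells were unstimulated. T1 cells had 4 h with phorbol 12-myristate 13-acetate (PMA, 10 ng/ml) and ionomycin (1 uM), a pair of drugs that switch on protein kinase C and let calcium into the cytosol, and so bypass the T cell receptor. A/J and C57BL/6J had 4 arrays at each time and the other strains had 3, 34 arrays in all. The labels call the replicates biological without saying whether each was 1 mouse or a pool. The sources used here do not settle whether T0 cells were cultured for the same 4 h. If they were not, culture and stimulus cannot be told apart.

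A naive T cell is kept small, long-lived and out of the cell cycle by an active gene programme. KLF2 and FOXO1 drive genes for homing and survival such as S1pr1, Il7r and Ccr7, and signals through PI3K and AKT send FOXO1 out of the nucleus. TCF1 (the product of Tcf7), LEF1, BACH2, SATB1 and ETS1 hold T cell identity and limit effector programmes, and TOB1 and FOXP1 restrain the response to activation. Several of these factors, among them Bach2, Foxo1, Foxp1, Klf2 and Ets1, are also made by B cells. In bulk RNA, fewer cells of a type and less RNA per cell cannot be told apart.

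The arrays carried the markers of helper T cells: all 12 that had a probe set were above the 5.327 limit in every group. Markers of other cells were present too. The summed levels of B cell, neutrophil, and monocyte, macrophage and dendritic cell markers fell with time. The summed level of 17 B cell markers ran from 11.85 to 13.56 log2 at T0 and from 11.36 to 12.59 at T1, with 12 of the 17 called lower and 4 higher. The summed level of 14 neutrophil markers ran from 8.71 to 11.36 at T0 and from 8.24 to 9.65 at T1. That of 17 monocyte, macrophage and dendritic cell markers averaged 11.36 at T0 and 10.70 at T1. Of the 16 of these kept, 7 were called lower and 1 higher. Over all genes, 46.3% were called lower and 36% higher. The summed erythroid markers, which include Tfrc, averaged 11.57 at T0 and 12.49 at T1, whereas those of CD8 T and NK cells (9.72 and 9.65) and platelets (7.51 and 7.47) differed by under 0.1 log2. The summed level of the 12 helper T cell markers ran from 13.12 to 13.56 at T0 and from 12.67 to 13.46 at T1, with Cd4 itself 0.86 log2 lower (SE 0.06). The part of these shifts in the results below was not tested. The array Balb/c T1 replicate 2 stood apart from its group, at a root mean square distance of 0.33 log2 from the group mean against 0.23 for the next array. Results that turn on it are given with and without it.

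**Figure D1:**
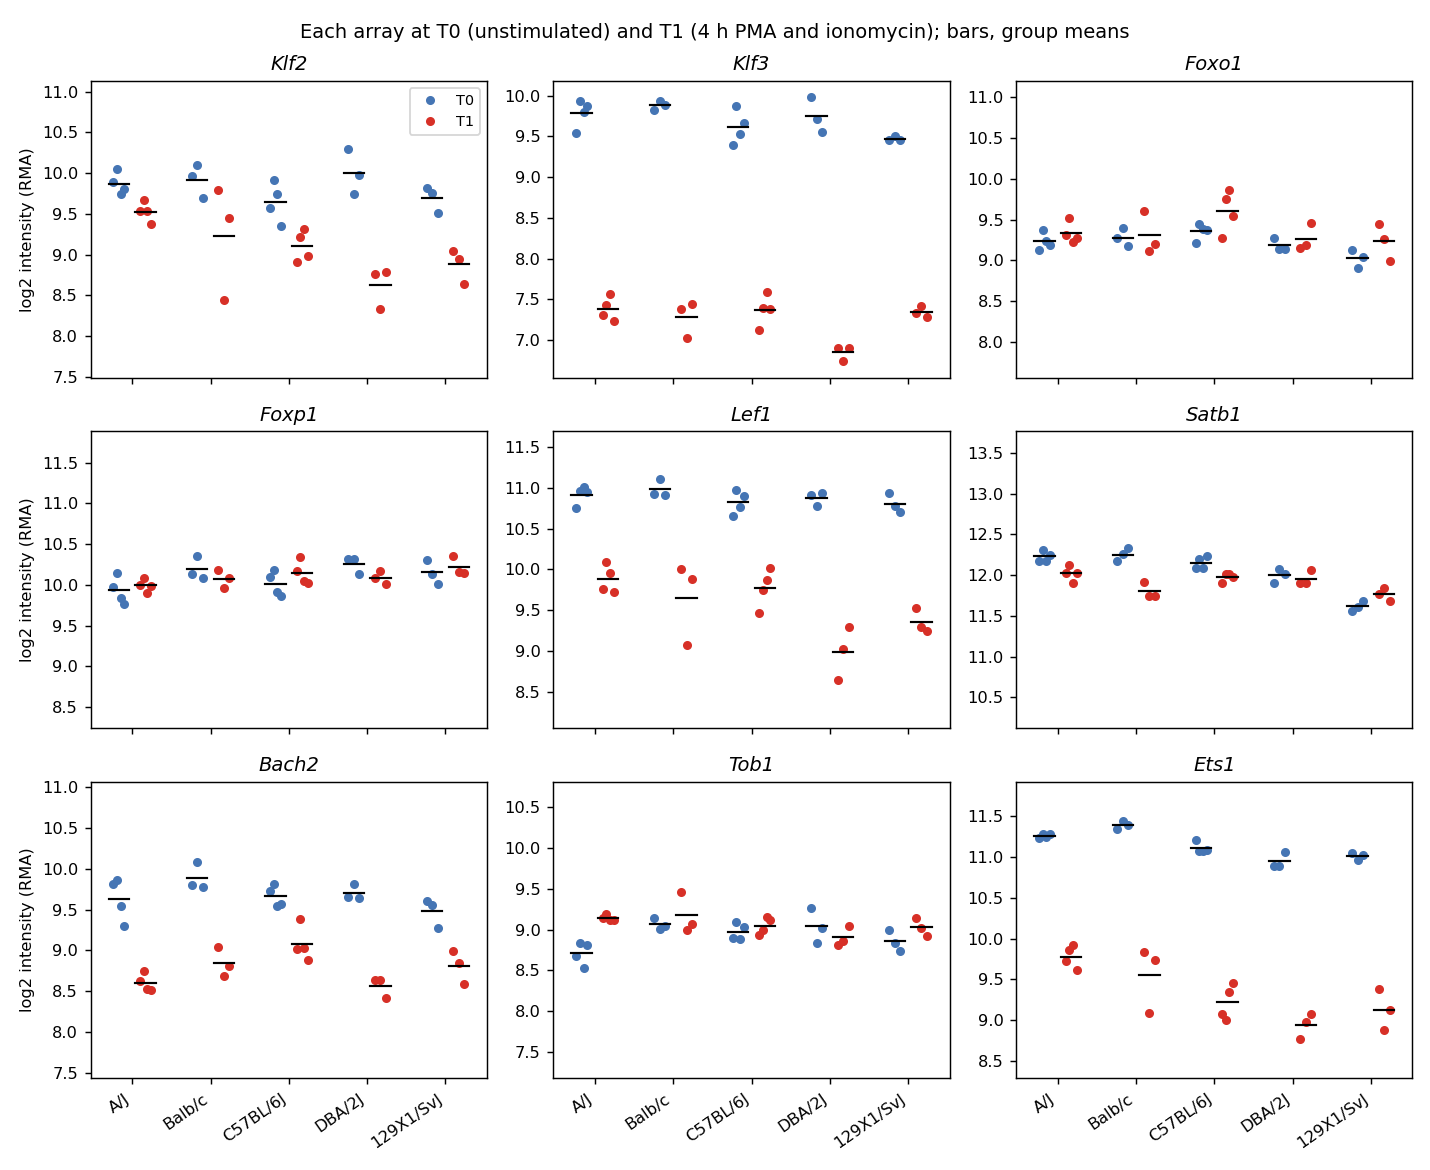
Log2 intensity of the 9 factors on each of the 34 arrays, by strain, with T0 in blue, T1 in red and bars for group means; every panel spans the same height in log2. All 17 T1 arrays lie below all 17 T0 arrays for Klf3, Lef1 and Ets1, whereas Foxo1, Foxp1 and Tob1 overlap between the times in every strain except Tob1 in A/J.

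Stimulation lowered part of the group by very different amounts. Averaged over the strains, 6 of the 9 fell (Klf3, Ets1, Lef1, Bach2, Klf2 and Satb1), Foxo1 and Tob1 rose by 0.13 log2 each, and Foxp1 did not pass the test. A call is an adjusted p under 0.05 in limma, with Benjamini-Hochberg over the 11413 genes. So many genes changed after 4 h that a call alone says little: 82.3% of all genes were called, 46.3% lower and 36% higher. The sizes separate the members better. Klf3, Ets1 and Lef1 fell by at least 1 log2, which 9.58% of all genes did. The same 3 had every T1 array below every T0 array, which held for 17.5% of all genes. The median change of the 9 was −0.76 log2, beside −0.07 for all genes.

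The Krüppel-like factors are zinc finger proteins that bind GC-rich boxes. KLF2 keeps T cells quiescent and drives the receptors for leaving the spleen and lymph nodes, and KLF3 acts mostly as a repressor at boxes of the same kind. Klf3 had the largest fall of the 9, from 9.70 at T0 to 7.25 at T1, a change of −2.46 log2 (SE 0.06, adjusted p 2.67e-26), which left 18.2% of the T0 level. It ranked 27 among the kept genes by the size of the fall. In A/J its T0 arrays read 9.54, 9.94, 9.80 and 9.87 and its T1 arrays 7.31, 7.43, 7.57 and 7.24. In DBA/2J they read 9.98, 9.71 and 9.55 and then 6.91, 6.74 and 6.91, the lowest values of the gene. In the other strains the T0 arrays ran from 9.40 to 9.94 and the T1 arrays from 7.03 to 7.59, and the times did not overlap in any strain.

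Klf2 fell less and less evenly, from 9.83 to 9.07, a change of −0.76 log2 (SE 0.09, adjusted p 6.64e-09). Each of the 17 T1 arrays was below its own strain's T0 mean, yet the times overlapped when strains were pooled. DBA/2J showed the clearest fall, from 10.29, 9.75 and 9.98 to 8.76, 8.33 and 8.79. A/J showed the smallest, from 9.89, 10.05, 9.75 and 9.80 to 9.53, 9.67, 9.53 and 9.37. The A/J arrays did not overlap between the times, but the change of −0.35 log2 (SE 0.18) missed the threshold at an adjusted p of 0.108. In Balb/c the T1 arrays read 9.79, 8.44 and 9.45, so the lone value of replicate 2 set much of that strain's mean. Without it the Balb/c change was −0.30 log2 (adjusted p 0.163) instead of −0.70 (adjusted p 0.00652), and the A/J change passed (adjusted p 0.0306). The C57BL/6J change of −0.53 log2 (adjusted p 0.0131) missed the threshold without T0 replicate 2 (−0.45 log2, adjusted p 0.0538).

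The 2 relatives changed by different amounts on the same arrays. On each array the log2 value of Klf2 minus that of Klf3 was taken, and its shift from T0 to T1 is the difference of their changes. Klf2 minus Klf3 ran from −0.32 to 0.43 at T0 and from 1.37 to 2.41 at T1, without overlap. The shift was 1.70 log2 (two-sided permutation test within strains, p 1.00e-05, the smallest that 100000 resamples can give, and 2.00e-05 adjusted over the 2 pairs run). It was positive in every strain, from 1.32 in 129X1/SvJ to 2.05 in A/J, and stayed between 1.65 and 1.75 with any 1 array left out.

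Both genes carry boxes of the kind that KLF and Sp proteins bind just upstream of their own start, and the sequences are shown because the pair changed so unequally. They are the 250 bases before the most upstream of each gene's starts in the RefSeq promoter set used here, in GRCm38.p6: chr8:72318812-72319061 on the plus strand for Klf2 and chr5:64803271-64803520 on the plus strand for Klf3. Capitals mark GGGCGGG (the GC box) and CCACCC (the CACCC box) on either strand, written as they read on the gene's strand.
Klf2: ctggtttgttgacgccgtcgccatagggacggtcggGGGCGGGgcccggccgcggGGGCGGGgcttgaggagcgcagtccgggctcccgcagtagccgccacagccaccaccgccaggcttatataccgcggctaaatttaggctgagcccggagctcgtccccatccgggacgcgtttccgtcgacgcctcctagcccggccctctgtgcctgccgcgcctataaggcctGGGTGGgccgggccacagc
Klf3: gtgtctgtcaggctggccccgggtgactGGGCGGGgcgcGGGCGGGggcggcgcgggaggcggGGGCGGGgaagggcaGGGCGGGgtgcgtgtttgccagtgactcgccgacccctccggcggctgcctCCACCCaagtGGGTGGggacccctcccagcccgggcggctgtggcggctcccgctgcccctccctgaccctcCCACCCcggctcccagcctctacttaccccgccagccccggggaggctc

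The Klf3 window holds the GC box at 4 places and the CACCC box at 3, and the Klf2 window holds them at 2 and 1. Over the 27025 promoters of the table, 23.6% hold the GC box and 27.6% the CACCC box. Both windows are rich in G and C, at 78.4% for Klf3 and 71.2% for Klf2 beside a median of 52% over all promoters, and such boxes are more likely in GC-rich sequence. A match is a description of the letters and does not show that a factor binds there.

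ETS1, the founding member of the ETS family, is needed for normal T cell survival and for Il7r expression. Ets1 fell from 11.14 to 9.32, a change of −1.82 log2 (SE 0.06, adjusted p 3.03e-22), to 28.3% of its T0 level. In C57BL/6J it went from 11.21, 11.07, 11.08 and 11.09 to 9.08, 9.0, 9.35 and 9.46. In A/J, where it fell least, it went from 11.23, 11.28, 11.25 and 11.28 to 9.72, 9.86, 9.92 and 9.61. All 17 T1 arrays, at 8.77 to 9.92, lay below all T0 arrays, at 10.89 to 11.44. The change ran from −1.48 log2 in A/J to −2.0 in DBA/2J and was called in every strain.

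LEF1 binds the same sites as TCF1 and with it upholds the CD4 lineage and the naive state. Lef1 fell from 10.88 to 9.53, a change of −1.35 log2 (SE 0.07, adjusted p 8.10e-17), to 39.2% of its T0 level. In DBA/2J it went from 10.91, 10.78 and 10.94 to 8.64, 9.02 and 9.30, a change of −1.89 log2. In A/J it went from 10.75, 10.96, 11.01 and 10.95 to 9.76, 10.09, 9.96 and 9.73, a change of −1.03. Every strain was called, and all 17 T1 arrays, at 8.64 to 10.09, lay below all T0 arrays, at 10.66 to 11.11.

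BACH2 is a repressor that opposes effector genes, in part by occupying AP-1 sites. Bach2 fell from 9.68 to 8.78, a change of −0.90 log2 (SE 0.06, adjusted p 1.68e-14). In Balb/c it went from 9.80, 10.09 and 9.78 to 9.04, 8.68 and 8.81. In C57BL/6J, where it fell least, it went from 9.73, 9.81, 9.55 and 9.57 to 9.02, 9.39, 9.03 and 8.88, a change of −0.59 log2. Within each strain the times did not overlap, although the pooled ranges did, with T0 from 9.27 to 10.09 and T1 from 8.41 to 9.39. Klf3, Lef1, Bach2 and Ets1 were the 4 of the 9 called lower in all 5 strains, beside 25.6% of all genes.

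The Bach2 window (GRCm38.p6, chr4:32417185-32417434, plus strand) is the 250 bases before the most upstream of its starts in the promoter set used here. Whether T cells use this start, or another lies farther upstream, was not settled. Among the 9 with an entry, this window is the only one that holds the ETS core CCGGAAG on either strand, which 7.1% of all promoters hold. It is shown because Ets1, a factor of that family, fell on the same arrays. Whether ETS1 binds there or acts on Bach2 was not tested. Capitals mark the match, which lies at positions −12 to −6 from the start.
Bach2: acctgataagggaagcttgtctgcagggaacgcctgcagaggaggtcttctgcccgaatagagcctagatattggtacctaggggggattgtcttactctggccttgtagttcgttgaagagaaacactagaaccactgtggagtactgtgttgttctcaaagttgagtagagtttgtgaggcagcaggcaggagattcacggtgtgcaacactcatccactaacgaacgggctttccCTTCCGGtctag

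Among the 9 with an entry, Tcf7 included, 7 windows held the GC box and 5 the CACCC box. The GC box of the Tcf7 window lies after an ATG that opens a reading frame running to the window's end. That match may therefore lie in coding sequence and not upstream of the gene. The windows of Foxo1 and Foxp1 held the NFAT core TGGAAA, as did 18.7% of all promoters. The FOXO core GTAAACA, the TCF/LEF core CTTTGAT, the AP-1 site TGANTCA, the cAMP response element TGACGTCA and the E-box CACGTG were in none of the 9, and they were in 3.1%, 3.3%, 6.9%, 1.6% and 6.0% of all promoters. These letters not being in a window of this length says nothing of the factors that bind them.

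The forkhead factors moved little. FOXO1 is controlled mainly through its place in the cell, and FOXP1 is a repressor that keeps naive T cells resting and limits Il7r. Foxo1 at T0 ran from 8.90 to 9.45 with a median of 9.21, and at T1 from 8.99 to 9.86 with a median of 9.28. The times overlapped, with 11 of 17 T1 arrays above their own strain's T0 mean. The change of 0.13 log2 (SE 0.06, adjusted p 0.0342) was lost in 10 of the 34 fits with 1 array left out (adjusted p 0.0501 to 0.0818), those without A/J T1 replicate 2, Balb/c T1 replicate 1 or T0 replicate 4, C57BL/6J T0 replicate 1 or T1 replicate 2 or 3, DBA/2J T0 replicate 3 or T1 replicate 4, or 129X1/SvJ T1 replicate 1 or T0 replicate 2. It was also lost after a further quantile normalization (0.10 log2, adjusted p 0.139). No strain was called on its own. The nearest to the threshold was C57BL/6J, from 9.21, 9.45, 9.39 and 9.37 to 9.28, 9.75, 9.86 and 9.55 (0.26 log2, adjusted p 0.0592). That strain passed without its T1 replicate 1 (0.37 log2, adjusted p 0.0084) and, with Balb/c T1 replicate 1 left out, at an adjusted p of 0.0445, and Foxo1 at T1 differed between strains without either of these or 129X1/SvJ T1 replicate 1 (range 0.45 to 0.49 log2, adjusted p 0.0157 to 0.0467).

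Foxp1 at T0 ran from 9.77 to 10.36 and at T1 from 9.90 to 10.35, with medians of 10.13 and 10.09. Its change was −0.01 log2, with a 95% interval from −0.10 to 0.09 (adjusted p 0.914), so a change of either sign beyond 0.10 log2 lies outside the interval. In single strains it ran from −0.17 log2 in DBA/2J to 0.13 in C57BL/6J, none of them called. The shift of Foxo1 minus Foxp1 was 0.14 log2 (two-sided permutation test within strains, p 0.0155, adjusted over the 2 pairs 0.0155), positive in each strain from 0.04 in A/J to 0.25 in DBA/2J. It is small beside the 1.70 of the Klf pair.

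SATB1 organises chromatin loops in thymocytes and T cells. Satb1 changed by −0.14 log2 on average (SE 0.04, adjusted p 4.80e-04), but the strain estimates did not all have the same sign. In Balb/c it went from 12.17, 12.26 and 12.33 to 11.92, 11.74 and 11.75, a fall of 0.45 log2 (SE 0.08, adjusted p 3.50e-05). In 129X1/SvJ it went from 11.56, 11.61 and 11.68 to 11.77, 11.84 and 11.68, a change of 0.15 log2 that missed the threshold (adjusted p 0.129). A/J and C57BL/6J were called lower, by 0.21 and 0.18 log2, and DBA/2J was not called (−0.04 log2, adjusted p 0.711). The A/J call was lost without T0 replicate 2 or T1 replicate 4 (adjusted p 0.0533 and 0.0642), and the C57BL/6J call without T0 replicate 2 or 4 or T1 replicate 1 or 4 (0.0507 to 0.0896). A further quantile normalization also ended the A/J call (−0.18 log2, adjusted p 0.0534) and left the 129X1/SvJ change at 0.04 log2 (adjusted p 0.757). Leaving out the filter on dim genes ended the call of C57BL/6J (adjusted p 0.0623).

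TOB1 is an antiproliferative protein of the TOB and BTG family that recruits the CCR4-NOT deadenylase and restrains T cell activation. Tob1 did not fall. It read from 8.53 to 9.27 at T0 and from 8.81 to 9.46 at T1, with 12 of 17 T1 arrays above their own strain's T0 mean. The mean change was 0.13 log2 (SE 0.05, adjusted p 0.0189), lost after a further quantile normalization (0.10 log2, adjusted p 0.0789). The rise was called in A/J, from 8.67, 8.84, 8.53 and 8.81 to 9.14, 9.19, 9.12 and 9.12, without overlap (0.43 log2, SE 0.10, adjusted p 5.35e-04). In the other strains it ran from −0.14 log2 in DBA/2J to 0.17 in 129X1/SvJ, none called.

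**Figure D2:**
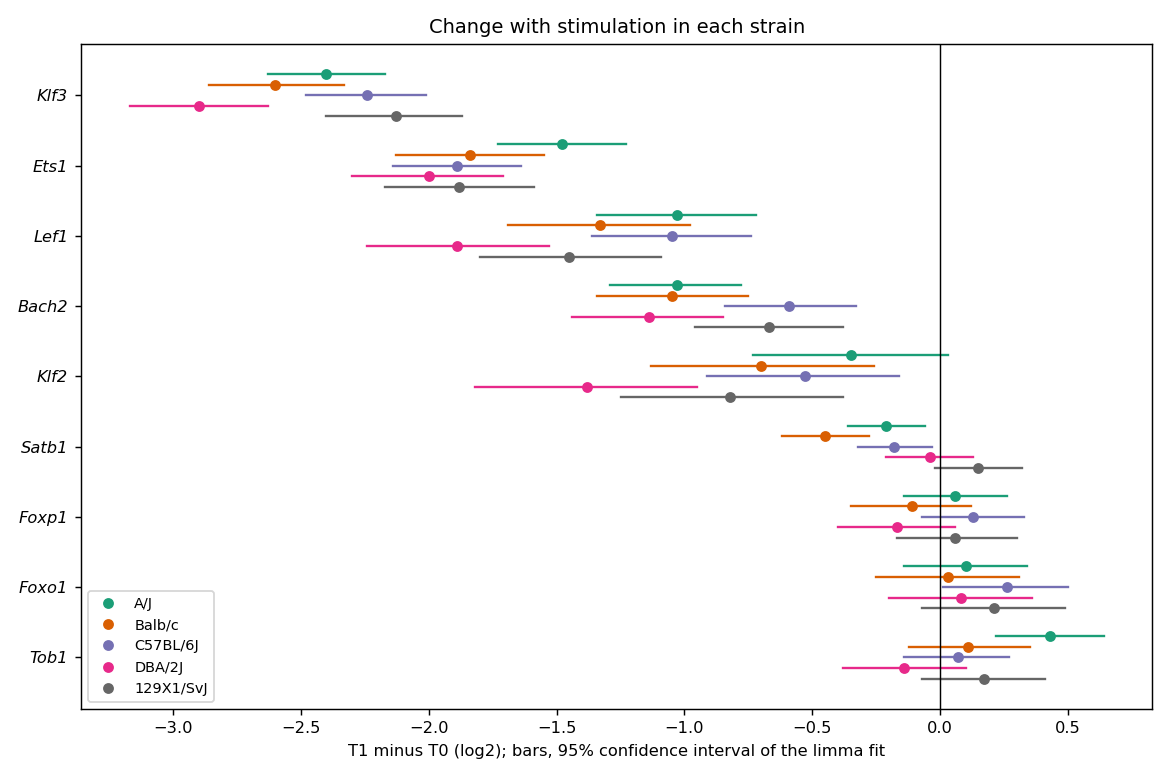
Change from T0 to T1 (log2) of each factor in each strain, with the 95% confidence interval of the limma fit; factors are ordered by their mean change. The falls run from −2.90 log2 for Klf3 in DBA/2J to values around 0 for Foxp1, Foxo1 and Tob1, and the DBA/2J point is the lowest of its row for Klf3, Ets1, Lef1, Bach2 and Klf2.

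Counted by strain, the members called lower were 6 of 9 in Balb/c and in C57BL/6J, and 5 of 9 in the other strains. Among all genes the same call held for 34.1% in Balb/c and 38.6% in C57BL/6J. It held for 36.3% in A/J, for 36.2% in DBA/2J and for 34.7% in 129X1/SvJ. Tob1 in A/J was the only rise called in a single strain. Without Balb/c T1 replicate 2 the count was 6 in A/J, where Klf2 joined, and 5 in Balb/c, where Klf2 dropped out.

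At T0 an F test over the 5 strains called 1 of the 9, Satb1, beside 18.5% of all genes. Satb1 was lowest in 129X1/SvJ (11.62 ± 0.06, SD, n = 3), then DBA/2J (12.00 ± 0.08, n = 3), and highest in Balb/c (12.25 ± 0.08, n = 3), a range of 0.64 log2 (adjusted p 1.27e-06). Each of the 129X1/SvJ arrays lay below each DBA/2J array, and each DBA/2J array below each C57BL/6J array, whereas C57BL/6J, A/J (12.23) and Balb/c were not separate. At T0 the helper T cell markers summed to 13.19 in 129X1/SvJ, 13.22 in DBA/2J, 13.26 in C57BL/6J, 13.34 in Balb/c and 13.48 in A/J. The B cell markers were 13.21, 13.15, 12.34, 12.19 and 11.97 in the same strains. The other marker lists had other orders. The part of these differences in the Satb1 order was not tested. The ranges of the other 8 factors at T0 were from 0.18 log2 for Lef1 to 0.45 for Ets1. Ets1 had the order DBA/2J, 129X1/SvJ, C57BL/6J, A/J and Balb/c, and from 129X1/SvJ upwards the arrays of neighbouring strains did not overlap. It missed the threshold (adjusted p 0.0958) and passed it without Balb/c T1 replicate 2 (adjusted p 0.0163), as did Tob1 (0.0692 and then 0.0471). Tob1 also passed without Balb/c T1 replicate 1 (0.0333) or DBA/2J T0 replicate 3 (0.0319), and Foxp1 without A/J T0 replicate 2 (range 0.39 log2, adjusted p 0.0466).

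At T1 the F test called 6 of the 9 (Klf2, Klf3, Lef1, Satb1, Bach2 and Ets1), beside 31% of all genes. Of these 6, DBA/2J had the lowest mean for Klf2, Klf3, Lef1, Bach2 and Ets1. Over all genes called lower with stimulation, DBA/2J had the lowest T1 mean for 36.4%, and over all 11413 genes for 24.5%. A/J had the highest T1 mean for 4 of those 5 (Klf2, Klf3, Lef1 and Ets1), but this turned on Balb/c T1 replicate 2. Without that array the Balb/c means of these 4 were the highest, at 9.62, 7.41, 9.94 and 9.79. Those of A/J were 9.52, 7.39, 9.89 and 9.78. At T0, DBA/2J was lowest for 1 of the 5, Ets1.

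Ets1 and Lef1 had the lowest adjusted p at T1. Ets1 ran from 8.94 ± 0.15 in DBA/2J through 9.13, 9.22 and 9.56 to 9.78 ± 0.14 in A/J, a range of 0.83 log2 (SD, n = 3 and 4, adjusted p 8.98e-05). Lef1 ran from 8.99 ± 0.33 in DBA/2J to 9.89 ± 0.17 in A/J, a range of 0.90 log2 (n = 3 and 4, adjusted p 5.71e-04). All arrays of A/J lay above all arrays of DBA/2J for both genes, while neighbours in the order overlapped. Klf2 had the same range, 0.90 log2 (adjusted p 0.00827), from 8.63 ± 0.26 to 9.52 ± 0.12. For Klf3 the difference was that of DBA/2J: its arrays, 6.74 to 6.91, lay below every other T1 array, and the other 4 strains had means from 7.28 to 7.39 (range over all 5 of 0.54 log2, adjusted p 0.00587). Bach2 had a range of 0.52 log2 (adjusted p 0.0136), with C57BL/6J highest at 9.08 and A/J (8.60) next to DBA/2J (8.56) at the low end. The range of Satb1 shrank to 0.25 log2 (adjusted p 0.0359), a call that was lost without Balb/c T1 replicate 2 (adjusted p 0.0514). Without that array 5 of the 9 were called at T1, beside 36.8% of all genes. The Klf3 call was lost without DBA/2J T1 replicate 3 (0.48 log2, adjusted p 0.0634) and the Bach2 call without C57BL/6J T1 replicate 2 (0.41 log2, adjusted p 0.0618).

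**Figure D3:**
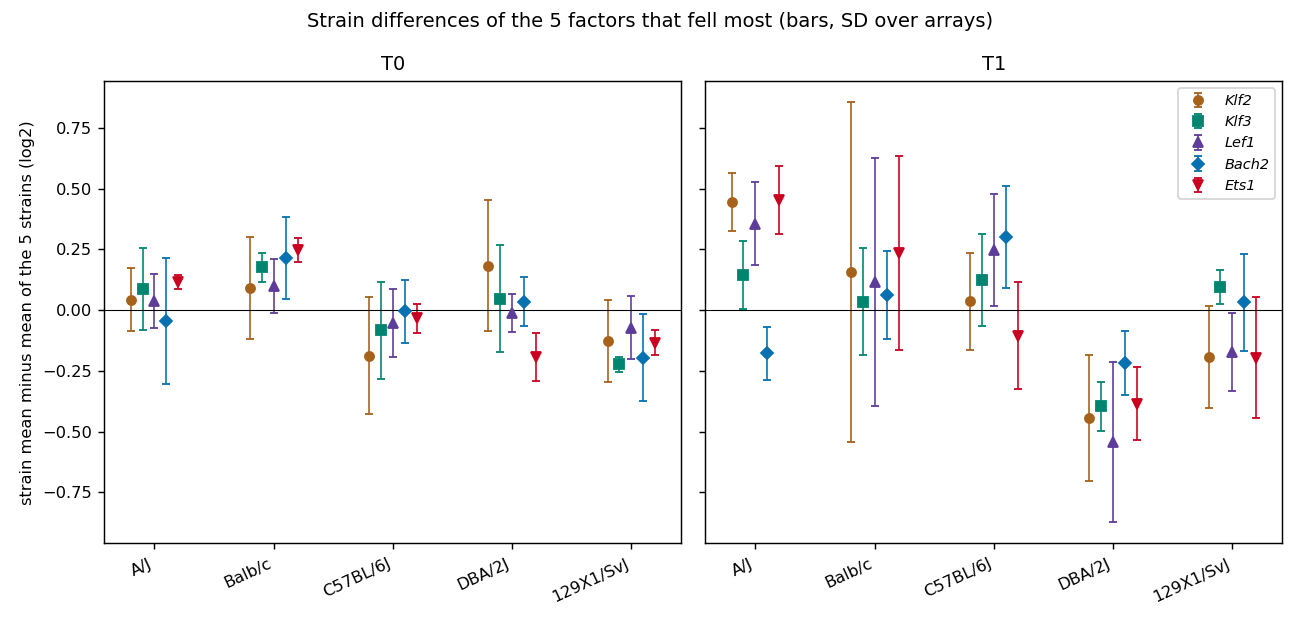
Strain means of Klf2, Klf3, Lef1, Bach2 and Ets1 minus the mean of the 5 strain means, at T0 on the left and T1 on the right (log2; bars are the SD over 3 or 4 arrays). The ranges over the strains run from 0.18 log2 (Lef1) to 0.45 (Ets1) at T0 and from 0.52 (Bach2) to 0.90 (Klf2 and Lef1) at T1. For Klf3 they are 0.41 at T0 and 0.54 at T1. At T1 all 5 are lowest in DBA/2J, and the wide Balb/c bars at T1 come from replicate 2.

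The strain order of some factors at T1 was that of the helper T cell markers and nearly the reverse of that of the B cell markers. Other marker lists shared it in part or not at all. At T1 the helper T cell markers summed to 13.38 log2 in A/J, to 13.17 in Balb/c, to 13.11 in C57BL/6J, to 12.79 in 129X1/SvJ and to 12.76 in DBA/2J, the order that the means of Ets1 and Klf2 had. The B cell markers ran the other way, at 11.47, 11.79, 11.94, 12.37 and 12.36 for the strains as just listed. DBA/2J and 129X1/SvJ also had the most B cell marker signal at T0, at 13.15 and 13.21 beside 11.97 to 12.34 in the other strains. At T1 the erythroid markers ran instead from 11.50 in 129X1/SvJ through 12.12, 12.68 and 12.87 (C57BL/6J, Balb/c and DBA/2J) to 13.16 in A/J. The neutrophil markers were 9.24 in A/J and 8.52 to 8.75 in the other strains. Markers of monocytes, macrophages and dendritic cells were highest in A/J (10.85) and lowest in DBA/2J (10.39), with 129X1/SvJ at 10.81. The naive and memory markers were also highest in A/J (12.35) and lowest in DBA/2J (11.99). The part of these differences in the strain order of the factors was not tested. Klf3 and Bach2 did not share the full order. At T1 129X1/SvJ was in the middle of the order for Klf3 (7.34) and A/J near the bottom for Bach2. That Ets1 and Klf2 shared the helper T cell marker order turned on Balb/c T1 replicate 2. Without that array the Balb/c means of Klf2 and Ets1, 9.62 and 9.79, were above those of A/J, 9.52 and 9.78. The helper T cell markers read 13.32 on that array and 13.14 and 13.05 on the other Balb/c T1 arrays.

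**Figure D4:**
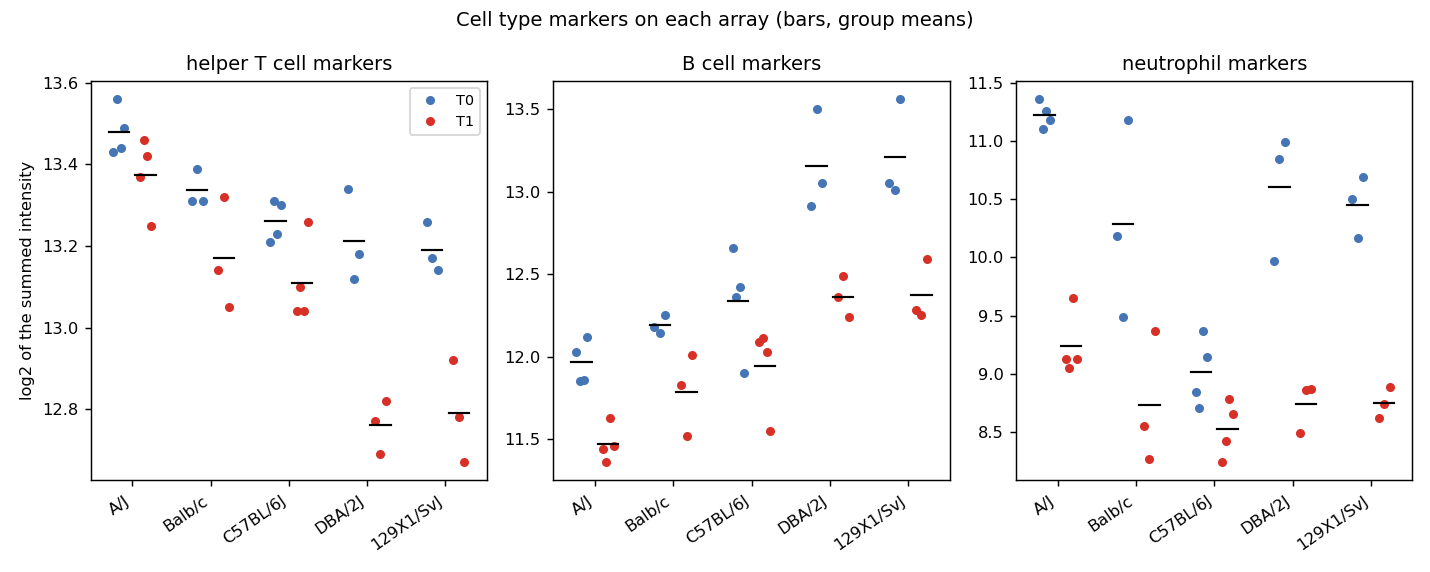
Summed intensity (log2) of the helper T cell, B cell and neutrophil markers on each array, by strain, with T0 in blue, T1 in red and bars for group means; the panels have their own axes. Helper T cell markers at T1 are lowest in DBA/2J and 129X1/SvJ (12.76 and 12.79), the strains with the highest B cell markers at both times.

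The test of the difference itself, an F test of whether the change from T0 to T1 differed between strains, called 2 of the 9, Satb1 and Klf3, beside 6.92% of all genes. The Satb1 change ran from −0.45 log2 in Balb/c to 0.15 in 129X1/SvJ (range 0.60, adjusted p 0.011). The Klf3 change ran from −2.13 log2 in 129X1/SvJ to −2.90 in DBA/2J (range 0.77, adjusted p 0.0301). That of Klf3 was lost in 7 of the 34 fits with 1 array left out (adjusted p 0.0503 to 0.109), those without DBA/2J T0 or T1 replicate 2 or 3, 129X1/SvJ T0 replicate 1 or 4 or 129X1/SvJ T1 replicate 2, and without the filter on dim genes (adjusted p 0.0515). Klf2 and Lef1 had wider ranges, 1.03 and 0.86 log2, and missed the threshold (adjusted p 0.124 and 0.0702). Without Balb/c T1 replicate 2 both passed, Klf2 at 1.08 log2 (adjusted p 0.00482) and Lef1 at 0.86 (adjusted p 0.0052), and 4 of the 9 were called, beside 10.3% of all genes in that fit. Both also passed without Balb/c T1 replicate 1 (adjusted p 0.0482 and 0.0377), and Lef1 without C57BL/6J T1 replicate 1 (0.94 log2, 0.0373) or DBA/2J T1 replicate 4 (1.01 log2, 0.0322). The fall was largest in DBA/2J for all 5 factors that fell most, which held for 32.7% of all genes called lower.

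Genes around the factors were counted in lists by role, where falls and rises are calls for the mean change. Over all 11413 genes, 46.3% were called lower and 36% higher. Target genes of KLF2 and FOXO1 in naive T cells fell for the most part: of 15 kept, 12 fell and 3 rose, with a median of −1.23 log2. S1pr1, the receptor for leaving lymphoid organs, changed by −3.24 log2 (SE 0.09), Il7r, the receptor for interleukin 7, by −2.78 (SE 0.07), and Sesn3, a sestrin that FOXO factors induce, by −1.64 (SE 0.05). The rises included Ctla4 (1.87 log2) and Btla (2.36 log2), inhibitory receptors that activated T cells carry. S1pr1 differed between strains in its change (adjusted p 0.00469), from −4.13 to −2.73 log2.

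Other quiescence genes had 18 falls and 4 rises among 23, with a median of −0.50 log2. Slfn1, a schlafen named for holding back T cell growth, changed by −2.92 log2 (SE 0.07), and Fyb, the adaptor ADAP, by −2.25 (SE 0.05). A role of each listed gene, Fyb among them, in keeping T cells at rest was not tested. Tnfaip3, which encodes the NF-kappaB brake A20, and Vsir, an inhibitory receptor, rose by 1.85 and 1.24 log2. Relatives of the factors had 18 falls and 11 rises among 32, beside 46.3% and 36% of all genes, and a median of −0.27 log2. Klf7 and Elf1, relatives of Klf3 and Ets1, fell by 1.90 and 1.27 log2, and Ets2 and Klf9 rose by 1.83 and 1.19 log2.

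The transcription factors of activation and effector cells moved the opposite way. Of 27 kept, 24 rose and 2 fell, with a median of 1.71 log2. Myc, a driver of growth, rose by 3.22 log2, Egr2, an early response gene, by 3.24, and Tbx21, which encodes the Th1 regulator T-bet, by 3.18. Ikzf2 (Helios) fell by 0.41 and Maf by 0.11 log2.

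Partners of TCF1 and LEF1 had 15 falls and 6 rises among 24, with a median of −0.37 log2. Slamf6, a surface marker of TCF1-positive cells, changed by −1.89 log2, and Apc and Gsk3b of the beta-catenin destruction complex by −0.95 and −0.92. The corepressor genes Tle3 and Tle1 rose by 0.84 and 0.53 log2. The PI3K, AKT and mTOR genes had 13 falls and 3 rises among 21, with a median of −0.44 log2. Inpp5d, the phosphatase SHIP1, changed by −2.0 log2 and Rictor of mTORC2 by −0.74, while Eif4ebp1, an inhibitor of translation that mTOR switches off, rose by 1.25 and Rheb, the activator of mTORC1, by 0.76.

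Regulators of the factors (ligases, kinases, proteases and cofactors) had 14 falls and 9 rises among 23, with a median of −0.19 log2. The shares over all genes were 46.3% lower and 36% higher. Nlk, a kinase that acts on LEF1 and TCF factors, changed by −1.71 log2, Camk4 by −1.16 and Hdac1 by −0.96. Camk2d and Fhl2 rose by 1.00 and 0.92 log2.

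**Figure D5:**
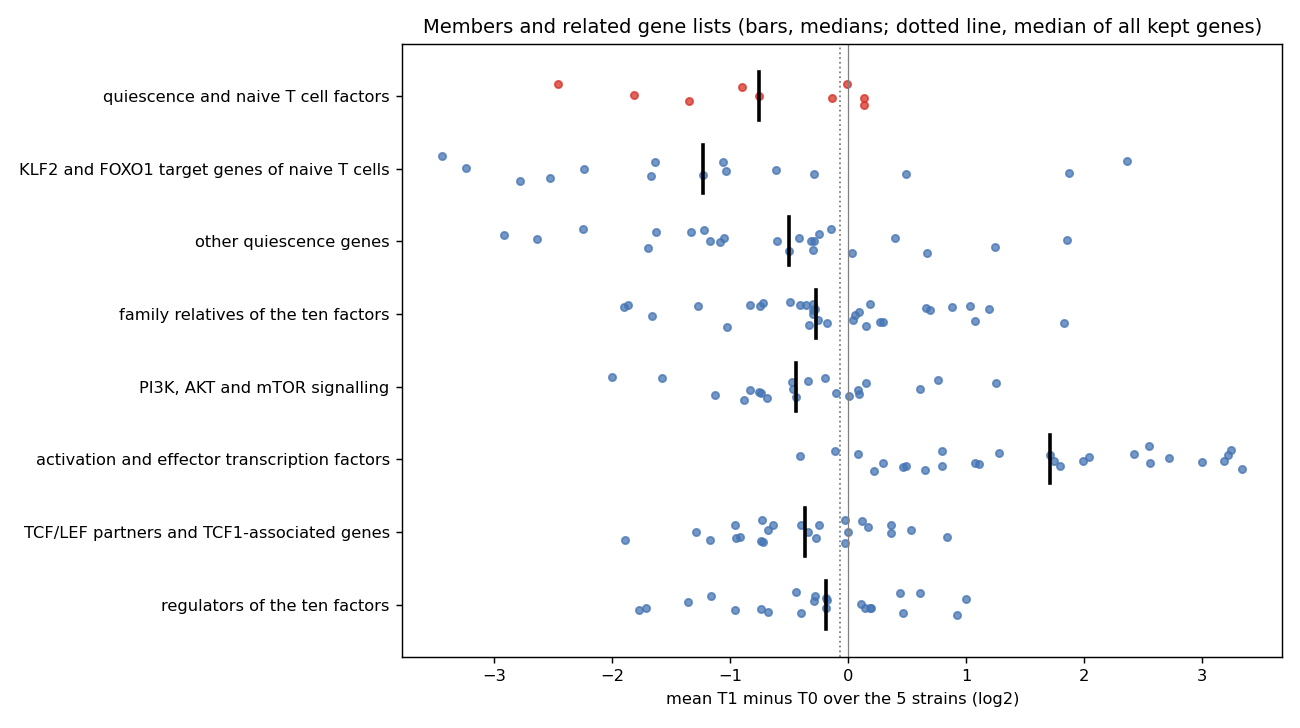
Mean change from T0 to T1 over the 5 strains (log2), 1 point per gene, for the 9 factors (red) and 7 related lists (blue); bars are medians and the dotted line is the median of all 11413 genes, −0.07. The factors' median of −0.76 lies between those of the KLF2 and FOXO1 targets (−1.23) and the other quiescence genes (−0.50), and the activation factors lie to the right at 1.71.

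Markers of T cell state were mixed, beside 46.3% of all genes called lower and 36% called higher. Of 13 naive and memory markers kept, 7 fell and 3 rose. Cd44, which marks activated and memory cells, rose by 1.55 log2 (SE 0.06), and Actn1 changed by −1.51 (SE 0.07). Of the 12 helper T cell markers, 6 fell and 4 rose, led by Cd3g (−1.66 log2) and Zap70 (1.18 log2). Of the B cell markers, Cd79b and Fcrla had the largest statistics, at −4.21 and −2.22 log2, and the 4 called higher were Cr2 (0.93), Blk (0.76), Cd72 (0.57) and Ebf1 (0.44), which are named because they went the other way.
The other lists had 10 falls and 0 rises among 11 neutrophil markers, with S100a9 and S100a8 the largest statistics (−1.94 and −1.82 log2), 7 and 1 among 16 of monocytes, macrophages and dendritic cells (Siglech −2.02, Itgam −1.18), and 6 and 2 among 9 of CD8 T and NK cells (Klrd1 −1.35, Cd8b1 −0.69). Of 9 erythroid markers 1 fell (Gata1, −0.37 log2) and 1 rose (Tfrc, 2.20 log2, which activated T cells also express), and of 2 platelet markers, Itga2b and Treml1, neither was called.

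For each factor the genes with the most similar pattern were found as those with the smallest root mean square difference over the 10 group means, after each gene was centred on its own mean. For Klf3 these were Klhl24 (0.131 log2) and Fbxl20 (0.145), which changed by −2.41 and −2.43 log2. For Ets1 they were Smpd2 (0.116) and Evl (0.125), and for Lef1 Coro1b and Spata13 (0.099 each). For Klf2 they were Plec (0.121) and Tmx4 (0.125), and for Bach2 Exd2 (0.098) and Top3a (0.10). The flatter factors had closer matches: Nap1l4 (0.059) and Mef2a (0.060) for Foxo1, Tyw3 (0.049) and Ilkap (0.054) for Foxp1, Hus1b (0.072) and Pigl (0.081) for Tob1, and Tgfb1i1 (0.080) and Peli1 (0.082) for Satb1. Within the group the closest were Foxp1 and Tob1 (0.14) and, among the factors that fell, Bach2 and Klf2 (0.27) and Lef1 and Ets1 (0.28).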

How the data were processed

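The authors' values came from RMA (background correction, quantile normalization and a summary per probe set), per the submitters' processing notes, with the version not given in the sources used here. Each deposited value is a log2 intensity. Gene symbols came from the platform annotation, updated through gene identifiers to RefSeq (GRCm38.p6): 21698 of 21789 identifiers were found. Of 35556 probe sets, 21789 had 1 symbol, 1621 several and 12146 none. Each gene kept its brightest probe set.

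One linear model with 10 groups was fitted to all 34 arrays with limma 3.58.1 in R 4.3.3. Benjamini-Hochberg adjustment ran over the 11413 genes kept, 8525 being left out. The script was tested on simulated data. Pair differences were permuted with numpy. Motifs were searched in RefSeq promoters. The planned pair Tcf7 and Lef1 was not run, because Tcf7 had no probe set listed. The named genes were all members, the 3 genes of each related list with the largest moderated statistics plus up to 2 called the opposite way, the 2 largest per marker list with Cd4, and the 2 genes nearest to each member. A marker list's level is the log2 of its summed intensities. The members and lists were chosen with earlier results of these data known. Same-numbered arrays of a strain at T0 and T1 were checked for shared deviations: their correlations ran from −0.08 to 0.47, over 0.1 in 14 of 17 and not in all. The labels do not say that a number marks a shared source, so the main model has no block. Alternatives were the filter, scaling, probe set rule, variance moderation, a replicate block, single strains and leaving out each array.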

Additional observations from a re-analysis of the deposited data

Results flagged for a closer look

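The Ets1 value of C57BL/6J T0 replicate 1, 11.21 log2, was high for its group, where the other arrays read 11.07 to 11.09, by Dixon's criterion. It was 1 of 36 groups of 4 arrays tested, and chance flags about 1 in 20. The Klf3 change differed between strains, with a range of 0.77 log2 (limma F test of the interaction, adjusted p 0.0301), and so did that of Satb1, with a range of 0.60 log2 (adjusted p 0.011).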

How the results depend on the processing

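No direction of a called member reversed under any alternative run. Members called for the mean stimulation numbered 7 to 8 and for stimulation within strains 26 to 29 with 1 array left out, beside 8 and 28. Between strains at T0 the count was 1 to 3 (1 as reported), at T1 4 to 7 (6), and for the interaction 1 to 4 (2); without the filter on dim genes the interaction count was 1. The highest interaction count, 4, came without Balb/c T1 replicate 1 or replicate 2. Of the 34 arrays, 25 correlated best with the array of their own number, a hint from the data and not the design. With the replicate block the interaction count was 3, with Bach2 added (0.56 log2, adjusted p 0.0402), and Foxo1 in C57BL/6J was called (0.26 log2, adjusted p 0.0347). With each strain fitted alone, Klf2 was called in A/J (adjusted p 0.0106) and lost in Balb/c (0.113), and Satb1 was lost in A/J (0.0657) and C57BL/6J (0.133); fewer arrays entered each of these fits. The Satb1 call at T1 was lost without the filter (adjusted p 0.0868), with arrays shifted to 1 median (0.072) and in 8 fits with 1 array left out (adjusted p 0.0505 to 0.108), namely A/J T1 replicate 1, 2 or 5, Balb/c T1 replicate 2 or 4, C57BL/6J T1 replicate 2, or 129X1/SvJ T1 replicate 1 or 4. The cause of these changes was not tested. The number of arrays limits the precision. Every array value of the 9 factors was above the 5.327 limit, the lowest being 6.74 for Klf3.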
